A study of Mus musculus with 2 samples.

Results

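The mouse gasdermins Gsdmc, Gsdmc2, Gsdmc3, Gsdmc4, Gsdmd, Gsdme (Dfna5 in older annotation) and Gsdma were examined in RNA of whole colon. These 7 genes were chosen by name, for their place in lytic death of epithelium and in type 2 responses of the colon, and every probe that the RefSeq accession on the array assigned to them was taken. They were covered by 9 of 56593 gene probes, of which 32989 could be named and represented 22909 genes. All 9 probes were well above background on both arrays, so every member has a measured ratio and none was lost to the filter on dim probes. C57BL/6 mice, 8 weeks old and with no treatment named in the labels, were compared: Villin-Cre controls, which carry Cre recombinase under the villin promoter of intestinal epithelium, and Villin-Cre; EP4flox/flox mice (EP4 cKO), which carry the same Cre and a floxed Ptger4, the gene of the prostaglandin E2 receptor EP4. There was 1 Agilent array in 1 colour (Cy3) per genotype, and RNA from 3 pools of colon was combined on each. As neither genotype was hybridized more than once, nothing was tested, p-values are absent, and every ratio describes these arrays.

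Gasdermins are pore-forming proteins that are kept inactive by their own C-terminal part. A protease cuts the linker, the N-terminal part enters the membrane, and the pores let out interleukin-1 family cytokines and can end in rupture of the cell, a death called pyroptosis. Gsdmd is cut by caspases of the inflammasome, Gsdme by granzyme B, and human GSDMC by caspase-8. In the mouse gut the Gsdmc genes are known as epithelial genes that answer to the type 2 cytokines interleukin-4 and interleukin-13, whereas Gsdma is best known from skin and other stratified epithelium.

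Of the 7 genes, Gsdmc3 and Gsdme had a promoter window in the RefSeq table of GRCm38.p6. The windows run from 250 bases before to 50 after the start of the gene and are printed because one gene is from the higher and one from the lower group of members and their base composition differs. The Gsdmc3 window lies at chr15:63878509-63878808 and the Gsdme window at chr6:50261720-50262019, both on the minus strand. Capitals mark the letters TATATAA.
Gsdmc3: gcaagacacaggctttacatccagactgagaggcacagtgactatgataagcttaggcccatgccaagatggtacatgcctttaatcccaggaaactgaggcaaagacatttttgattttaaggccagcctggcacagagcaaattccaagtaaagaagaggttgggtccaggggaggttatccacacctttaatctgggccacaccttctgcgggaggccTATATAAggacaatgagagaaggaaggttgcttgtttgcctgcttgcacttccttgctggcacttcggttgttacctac
Gsdme: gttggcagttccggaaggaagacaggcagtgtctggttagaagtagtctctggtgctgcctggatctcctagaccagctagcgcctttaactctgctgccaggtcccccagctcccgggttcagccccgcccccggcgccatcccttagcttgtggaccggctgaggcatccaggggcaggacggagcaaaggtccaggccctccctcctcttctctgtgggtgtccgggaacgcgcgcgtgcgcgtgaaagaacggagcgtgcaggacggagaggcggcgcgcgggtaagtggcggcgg
The Gsdmc3 window held 48.3% G and C and 2 CG dinucleotides, and the Gsdme window 65.7% and 24, against medians of 52.7% and 7 over 32851 windows of the table. Fewer CG dinucleotides than in Gsdmc3 were found in 14.1% of the windows, and more than in Gsdme in 18.4%. The letters TATATAA stood once in the Gsdmc3 window, starting 29 bases before the start of the gene (offset -29), and not in the Gsdme window, and 3.24% of all windows held them on either strand. The letters TTCNNNGAA and TTCNNNNGAA, in the form of STAT sites, GAAANNGAAA, the core of an interferon-stimulated response element, and TATAAA, the common TATA box, were searched on both strands and were in neither window. They were in 8.30%, 6.95%, 3.44% and 13.6% of all windows.

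Signals were scaled on each array to a trimmed mean of 2500, as in the methods of the study, which multiplied the Villin-Cre array by 3.45 and the EP4 cKO array by 2.68. The signal of a probe is in these scaled units, the error beside it is that of the scanner software for 1 spot, and the log2 ratio is EP4 cKO over Villin-Cre. Signals of different probes cannot be compared with each other. A gene measured well above background on one array and not on the other has a bound in place of a ratio, taken against the floor of the dim array (125 for Villin-Cre, 57.8 for EP4 cKO) or, where higher, the dim signal itself, and a bound of 0 means that the measured signal did not exceed it. Well above background were 45.4% of all probes for Villin-Cre and 51.6% for EP4 cKO. The 24734 probes that passed on both had a median log2 ratio of -0.19. Ptger4, the targeted gene, had a signal of 6227 in Villin-Cre colon against 5661 in EP4 cKO colon (log2 ratio -0.14) by its brighter probe, and 393 and 592 (0.59) by its dimmer one. The array labelled EP4 cKO thus showed no 2-fold loss of Ptger4, and the directions below rest on the labels. Whether these probes lie in the floxed part of the gene is not given in the sources used here, so they may not check the deletion. Cre acts in the epithelium, whereas the RNA is of whole colon, and the paper states that lamina propria cells express EP4 too. Ptger4 RNA of the epithelium was not told apart from that of other cells. In whole colon, fewer cells of a type and less RNA per cell cannot be told apart.

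Taking each gene by its brightest probe, Gsdmc, Gsdmc2 and Gsdmd were more than 2-fold higher on the EP4 cKO array, Gsdma was more than 2-fold lower (within 2-fold under other scalings, described with its probes), and Gsdmc3, Gsdmc4 and Gsdme were within 2-fold (past it under some scalings for Gsdmc3 and Gsdmc4). Among the 14669 genes with a value, 4.86% were higher and 7.87% lower by more than 2-fold, with a median log2 ratio of -0.10. That split depends on the scaling: the shares higher and lower were 6.39% and 6.18% with the 75th percentile, 6.14% and 6.43% with a trimmed mean over all spots, 7.73% and 4.90% with loess, 4.19% and 2.65% with normexp and quantile normalization, and 50.7% and 1.88% with the E1A control spots, which read a spike-in RNA. By probe, 3 of the 9 were past 2-fold higher, 2 past 2-fold lower and 4 within, where 3.18% of all probes well above background on both arrays were higher and 6.61% lower. In the main setting the members lay on both sides of the median of all genes and not close to it. The 5 genes of the C and D groups lay at a log2 ratio of 0.82 or above, and Gsdme and Gsdma lay near -1. With the E1A control spots, which raise all ratios alike, Gsdme and Gsdma were at 0.18 and 0.14.

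**Figure D1:**
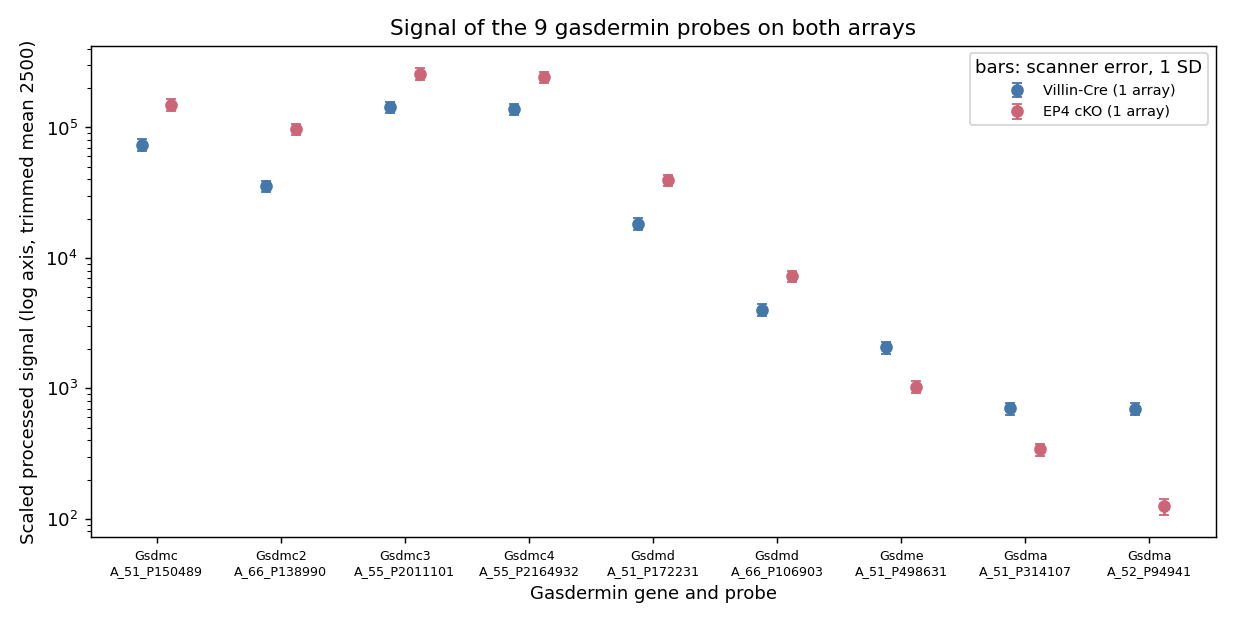
Scaled processed signal (log axis) of each gasdermin probe on the Villin-Cre array (blue) and the EP4 cKO array (red), 1 array each, with bars for the scanner error of 1 spot. The red point stands above the blue one for the 6 probes of Gsdmc, Gsdmc2, Gsdmc3, Gsdmc4 and Gsdmd and below it for the 3 probes of Gsdme and Gsdma; heights of different probes cannot be compared.

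The 4 Gsdmc genes, the paralogs of intestinal epithelium, were all higher on the EP4 cKO array. Gsdmc, probe A_51_P150489, had a signal of 73699 ± 7370 in Villin-Cre colon against 149414 ± 14941 in EP4 cKO colon. Gsdmc2, probe A_66_P138990, had 35389 ± 3539 and 97146 ± 9715. For both genes the EP4 cKO signal lay outside the scanner error of the Villin-Cre signal and was past 2-fold: the log2 ratio was 1.02 ± 0.20 for Gsdmc (2.03-fold), just past the threshold, and 1.46 ± 0.20 for Gsdmc2 (2.75-fold). Gsdmc3, probe A_55_P2011101, had 142471 ± 14247 in Villin-Cre colon against 258487 ± 25849 in EP4 cKO colon. Gsdmc4, probe A_55_P2164932, had 138178 ± 13818 and 243973 ± 24397. These genes were also higher but stayed within 2-fold, with log2 ratios of 0.86 (1.81-fold) and 0.82 (1.77-fold). Under other scalings they passed it: Gsdmc3 had 1.02 with the 75th percentile and 1.097 after normexp with quantile normalization, Gsdmc4 had 1.05 after normexp, and both were past 2-fold with the E1A control spots.

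Few genes had ratios above those of the Gsdmc genes. Of all genes with a value, 2.58% had a higher log2 ratio than Gsdmc2, 4.68% than Gsdmc, 6.22% than Gsdmc3 and 6.60% than Gsdmc4. All 4 probes lie in the brightest 10% of the probes measured on both arrays, where the median log2 ratio was -0.10 and where 3.31% of the probes were more than 2-fold higher. Among themselves the 4 genes spanned 0.64 on the log2 scale. Gsdmc2 exceeded Gsdmc3 by 0.60 and Gsdmc4 by 0.64 in log2 ratio, each past 2 scanner errors of such a difference (error 0.29), whereas Gsdmc3 and Gsdmc4 differed by 0.04 and Gsdmc lay between them and Gsdmc2 without differing from any of the 3 by more than 2 errors. After normexp with quantile normalization Gsdmc2 exceeded them by 0.43 and 0.47, and after loess by 0.54 and 0.58, under 2 errors in the first case and for Gsdmc3 in the second. The 4 genes are close paralogs and the probe sequences were not given in the sources used here, so the share of one gene's signal that came from RNA of another was not tested.

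**Figure D2:**
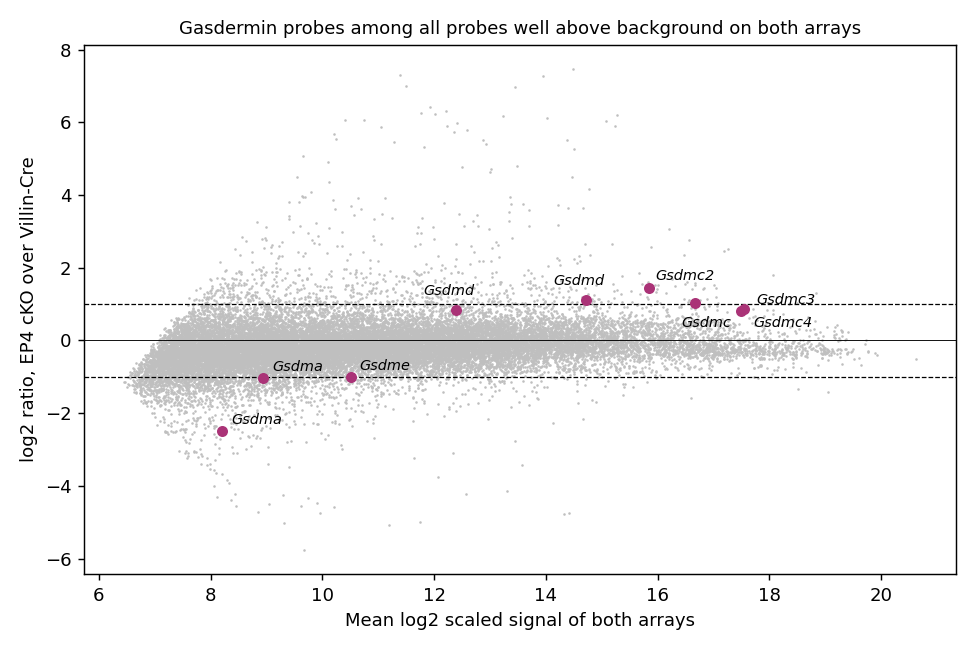
Log2 ratio of EP4 cKO over Villin-Cre against the mean log2 scaled signal of both arrays for all 24734 probes well above background on both (grey), with the 9 gasdermin probes in purple and dashed lines at 2-fold. The Gsdmc genes sit at the bright end and in the upper part of the grey points, Gsdme and the brighter Gsdma probe at the lower dashed line, and the second Gsdma probe at -2.48.

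The 4 Gsdmc genes are neighbours on their chromosome, with relatives that are annotated as Gsdmc-like genes between and beside them, which made it possible to set them beside the genes around them. The Gsdmc-like pseudogene Gsdmcl-ps, at the end of the cluster, had a signal of 977 ± 101 in Villin-Cre colon against 3520 ± 352 in EP4 cKO colon. It was higher on the EP4 cKO array, with a log2 ratio of 1.85 ± 0.21 (3.60-fold), above the ratio of each Gsdmc gene. Its distance from the nearest, Gsdmc2 (1.46 ± 0.20), was not tested against 2 scanner errors. The share of its signal that came from RNA of the brighter Gsdmc genes was not tested either. Neither array measured Gsdmcl1 or Gsdmcl2 well above background. Of the 6 protein-coding genes that flank the cluster, 3 on each side, 5 had a value, from -0.11 to 0.69 on the log2 scale, and 0 were past 2-fold. On one side Lratd2 had a log2 ratio of 0.17 and A1bg was not well above background. On the other, Cyrib, an inhibitor of Rac signalling to actin, had 0.67, Asap1, a GTPase-activating protein of Arf proteins, had 0.69, and Adcy8, an adenylyl cyclase, was measured on the EP4 cKO array only and had a bound of 0. Gsdmc3 and Gsdmc4 were within 2-fold as well, at 0.86 and 0.82, not far above Cyrib and Asap1. Differences between flanking genes and Gsdmc genes were not tested against 2 scanner errors, so the cluster is not set apart from this flank.

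**Figure D3:**
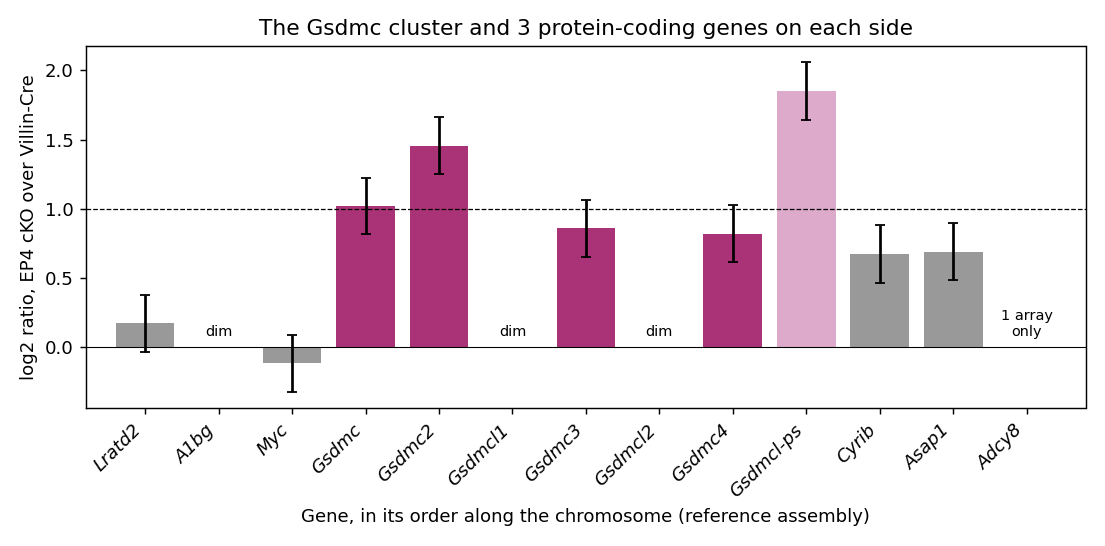
Log2 ratio of EP4 cKO over Villin-Cre for the Gsdmc cluster and 3 protein-coding genes on each side, in their order along the chromosome of the reference assembly without scale, with bars for the scanner error; Gsdmc genes are dark purple, the pseudogene Gsdmcl-ps is light purple, other genes are grey, and the dashed line is 2-fold higher. Gsdmc, Gsdmc2 and Gsdmcl-ps reach past the line, Gsdmc3 and Gsdmc4 stay under it, and genes marked dim or measured on 1 array only have no bar.

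Gsdmd, the gasdermin that inflammasome caspases cut, was measured by 2 probes that moved the same way. The brighter, A_51_P172231, had 18237 ± 1824 in Villin-Cre colon against 39543 ± 3954 in EP4 cKO colon. The dimmer, A_66_P106903, had 4005 ± 401 and 7220 ± 722. Both were higher on the EP4 cKO array by more than the scanner error, with log2 ratios of 1.12 (2.17-fold) and 0.85 (1.80-fold), and they differed by 0.27, which is under 2 scanner errors (error 0.29). By its brighter probe 4.01% of all genes had a higher ratio than Gsdmd. The measured genes beside Gsdmd on its chromosome were within 2-fold: Zc3h3, a zinc finger protein, had a log2 ratio of 0.54, Naprt, an enzyme of NAD synthesis, -0.23, Eef1d, a translation elongation factor, -0.20 and Mafa, a transcription factor of beta cells, -0.35.

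By these errors Gsdmd could not be set apart from the Gsdmc genes. Its log2 ratio differed from each of theirs by less than 2 scanner errors, being 0.34 below that of Gsdmc2 and 0.10, 0.26 and 0.30 above those of Gsdmc, Gsdmc3 and Gsdmc4. Of the 21 pairs among the 7 genes, 12 differed by more than 2 errors. They were the pairs of Gsdmc2 with Gsdmc3 and with Gsdmc4, and the 10 pairs that set a C or D gasdermin against Gsdme or Gsdma. In these 10 pairs the log2 ratio of the C or D gasdermin exceeded that of the other by 1.82 to 2.50, and by 1.69 to 2.50 over the 8 settings. Only normexp and loess could move these differences, since the other scalings shift all genes alike and the filters keep every member.

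Gsdme, the gasdermin tied to secondary lysis of apoptotic cells, ran the other way. Its probe A_51_P498631 had a signal of 2058 ± 207 in Villin-Cre colon against 1031 ± 104 in EP4 cKO colon. The EP4 cKO signal was the lower, by 1.996-fold (log2 ratio -0.997 ± 0.21), just short of the threshold, but the log2 ratio was 0.18 after scaling to the E1A control spots, a setting that raised the median of all probes by 1.18. Lower ratios were found in 7.90% of all genes, and in probes of like brightness the median was -0.15 with 3.92% past 2-fold lower. Of the genes beside Gsdme, Osbpl3, an oxysterol-binding lipid carrier, had a log2 ratio of 1.05 (2.07-fold higher), Cycs, the cytochrome c gene, 0.85 and Mpp6, a membrane scaffold of the MAGUK family, 0.18. Of the 4 measured genes at this place only Gsdme had the lower signal in EP4 cKO colon, with that exception for the E1A spots.

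Gsdma, the gasdermin of skin, had 2 probes that went the same way and disagreed in size. Probe A_51_P314107 had 702 ± 74.9 in Villin-Cre colon against 342 ± 36.2 in EP4 cKO colon. Probe A_52_P94941 had 699 ± 75.2 and 125 ± 17.6. Both were lower on the EP4 cKO array, with log2 ratios of -1.04 (2.05-fold lower) and -2.48 (5.60-fold lower), and they differed by 1.45, past 2 scanner errors (error 0.34). Among probes of like brightness, 9.26% and 12.6% were past 2-fold lower, more than in the table as a whole. The first probe was within 2-fold under the other scalings, from -0.91 to -0.63, and at 0.14 after scaling to the E1A control spots, whereas the second stayed past 2-fold lower in each, at -1.23 to -2.48.

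**Figure D4:**
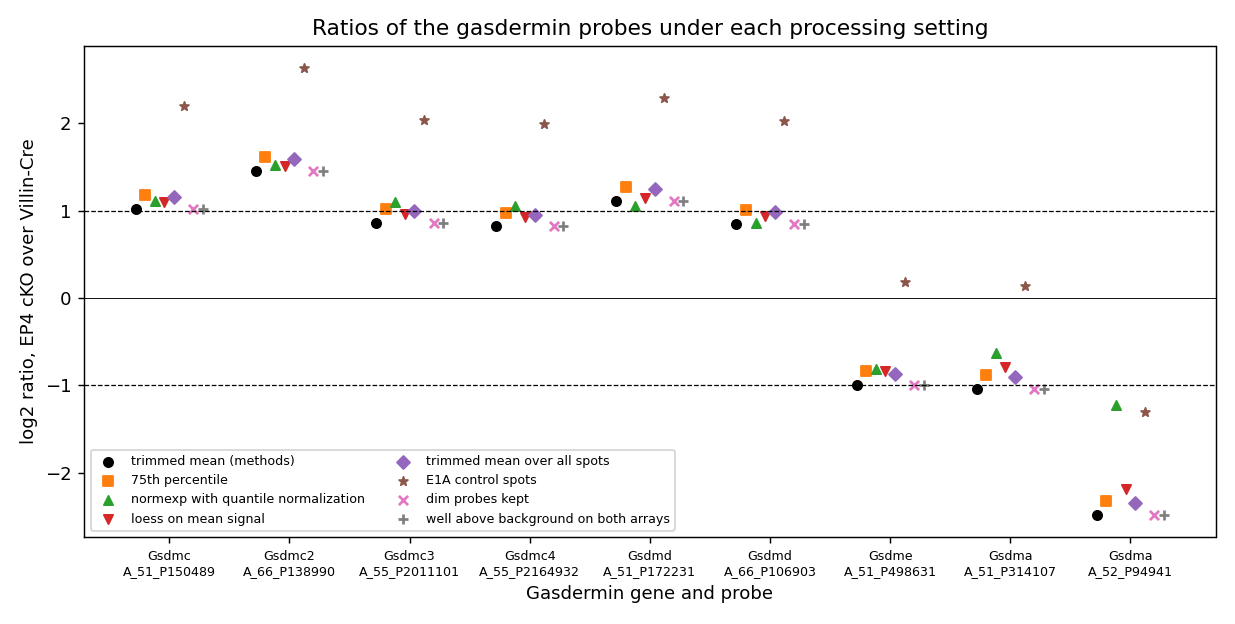
Log2 ratio of EP4 cKO over Villin-Cre for each gasdermin probe under the main scaling (black) and each of 7 alternatives (symbols), with dashed lines at 2-fold. The 6 Gsdmc and Gsdmd probes stay between 0.82 and 2.63, and Gsdme and the first Gsdma probe cross 0 only with the E1A control spots.

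The rest of the Gsdma cluster was not measured well. Gsdma2 and Gsdma3, the paralogs beside Gsdma, were dim: Gsdma3 was measured well above background on neither array, and of the 3 probes of Gsdma2 one was so on the EP4 cKO array, with a bound of 0. Pjvk, the gasdermin-related gene pejvakin of hair cells, was not well above background either. Around the cluster, Ormdl3, a regulator of sphingolipid synthesis, had a log2 ratio of -0.70, Zpbp2, a sperm protein, -0.38, Lrrc3c -0.27, and the proteasome subunit gene Psmd3 and the Mediator subunit gene Med24 -0.08 and -0.09. None of these was past 2-fold.

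Fibroblast markers were lower together with Gsdme and Gsdma, and the squamous and smooth muscle lists had 0 and 1 genes past 2-fold lower. Of 6 fibroblast markers 5 had a value and all 5 were past 2-fold lower in EP4 cKO colon, and the summed signal of the 6 was 12957 in Villin-Cre colon against 304 in EP4 cKO colon. Dcn, which encodes the matrix proteoglycan decorin, had 6006 and 110 (log2 ratio -5.77). Col1a2, a collagen chain, had 3613 and 111 (-5.03), and Col3a1, another, was at least 28.0-fold lower. Pdgfra was measured well above background on neither array. Of the markers of stratified squamous epithelium, 10 of 13 had a value and 0 were past 2-fold, with a median of -0.09 (-0.21 over the 8 genes measured on both arrays) and a summed signal of 12221 and 13175. A summed signal is led by the brightest probes of its list, here Trp63 with 6476 and 8088. Among genes of keratinizing layers Sbsn and Krtdap had -0.98 and -0.81 and Lor 0.16, the basal genes Krt5, Krt14 and Trp63 had -0.23, 0.10 and 0.32, Krt10 and Krt6a -0.27 and -0.18, Dsg3 had a bound of 0.65, and Krt1, Krt4 and Ivl were not well above background. The smooth muscle list had 1 of 5 genes lower, the calponin gene Cnn1, with 479 and 72.3 (-2.73), with a median of 0.38 and a summed signal of 30148 and 45499.5. The part of stromal or squamous RNA in the ratios of Gsdme and Gsdma was not tested.

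Proteases that cut gasdermins were higher or within 2-fold. Of 8 with a value, 3 passed 2-fold upwards and 0 downwards, with a median log2 ratio of 0.80, against 4.86%, 7.87% and -0.10 over all genes. Casp4, the mouse caspase-11 gene, whose product cuts Gsdmd on sensing lipopolysaccharide, had a signal of 9358 in Villin-Cre colon against 28787 in EP4 cKO colon, a log2 ratio of 1.62 (3.08-fold). Casp1, the caspase of inflammasomes, had 44179 and 63806, a log2 ratio of 0.53 within 2-fold. Casp8, the initiator caspase of death receptors, had 0.65.

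The granzymes of cytotoxic cells were the most changed of the proteases. Gzma, whose human product cuts GSDMB, had 476 in Villin-Cre colon against 5795 in EP4 cKO colon, a log2 ratio of 3.60 (12.2-fold). Gzmb, whose product cuts Gsdme, was well above background on the EP4 cKO array only and was at least 4.56-fold higher. Of the neutrophil proteases, Elane had -0.16, and Ctsg was well above background on the EP4 cKO array only, with a bound of 0 that gives no direction. Of the T and NK cell markers, 2 of 6 were higher, Nkg7 (1.42) and Cd3g (1.28), with a median of 0.09 (0.73 over the 4 genes measured on both arrays) and a summed signal of 10601 and 12414, led by Cd4 (6749 and 7641) and Cd3e (3069 and 2861), while Cd3e had -0.10 and Cd8a and Klrb1c bounds of 0. Their part in the ratios of the granzymes was not tested.

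Upstream of these proteases, the inflammasome genes changed little. Of 14 sensors and adaptors 12 had a value, 1 was past 2-fold higher and 0 lower, with a median of 0.25. The one past the threshold was Nlrp1a, a sensor of the NLRP1 group, with 16771 and 34644 (log2 ratio 1.05, 2.07-fold). Pycard, which encodes the adaptor ASC, had 0.29, and Nlrp3 and Mefv were measured well above background on neither array. Downstream, the 5 cytokines and alarmins that leave through gasdermin pores went both ways, with 1 higher and 2 lower. The median over the 3 measured on both arrays was -1.50, and with the bounds it was 0.00, the value at which the bound of Il1a was set. Il18, the epithelial cytokine that caspase-1 matures, had 72176 in Villin-Cre colon against 25559 in EP4 cKO colon (log2 ratio -1.50, 2.82-fold lower). Il33, an alarmin of epithelium and stroma, had 608 and 120 (-2.34, 5.07-fold lower). Il1b was well above background on the EP4 cKO array only, at least 3.44-fold higher. So Gsdmd and Casp4 were higher on the array on which Il18 was lower.

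The genes that act on gasdermin pores or membranes after cutting did not pass 2-fold in either direction. None of 8 genes of membrane rupture and ESCRT repair did (1 with the 75th percentile or a trimmed mean over all spots), with a median of 0.36: Ninj1, whose product ruptures the membrane after pore formation, had a log2 ratio of -0.14, and Pdcd6ip, the ESCRT partner ALIX, had the largest of the list at 0.94. None of 10 genes of palmitoylation and the Ragulator-Rag complex, which promote the pore of Gsdmd, did so either, with a median of 0.02 and the largest ratio at Zdhhc5, a palmitoyltransferase (0.72).

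Of the 4 transcription factors known for gasdermin genes, 1 was past 2-fold. Irf1, which drives Gsdmd in interferon responses, had 29301 in Villin-Cre colon against 74994 in EP4 cKO colon, a log2 ratio of 1.36 (2.56-fold). Irf2, the factor that keeps up the basal level of Gsdmd, had 0.14, Stat6, which carries the signal of interleukin-4 and interleukin-13, -0.04, and Trp53, known to drive Gsdme, -0.01.

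**Figure D5:**
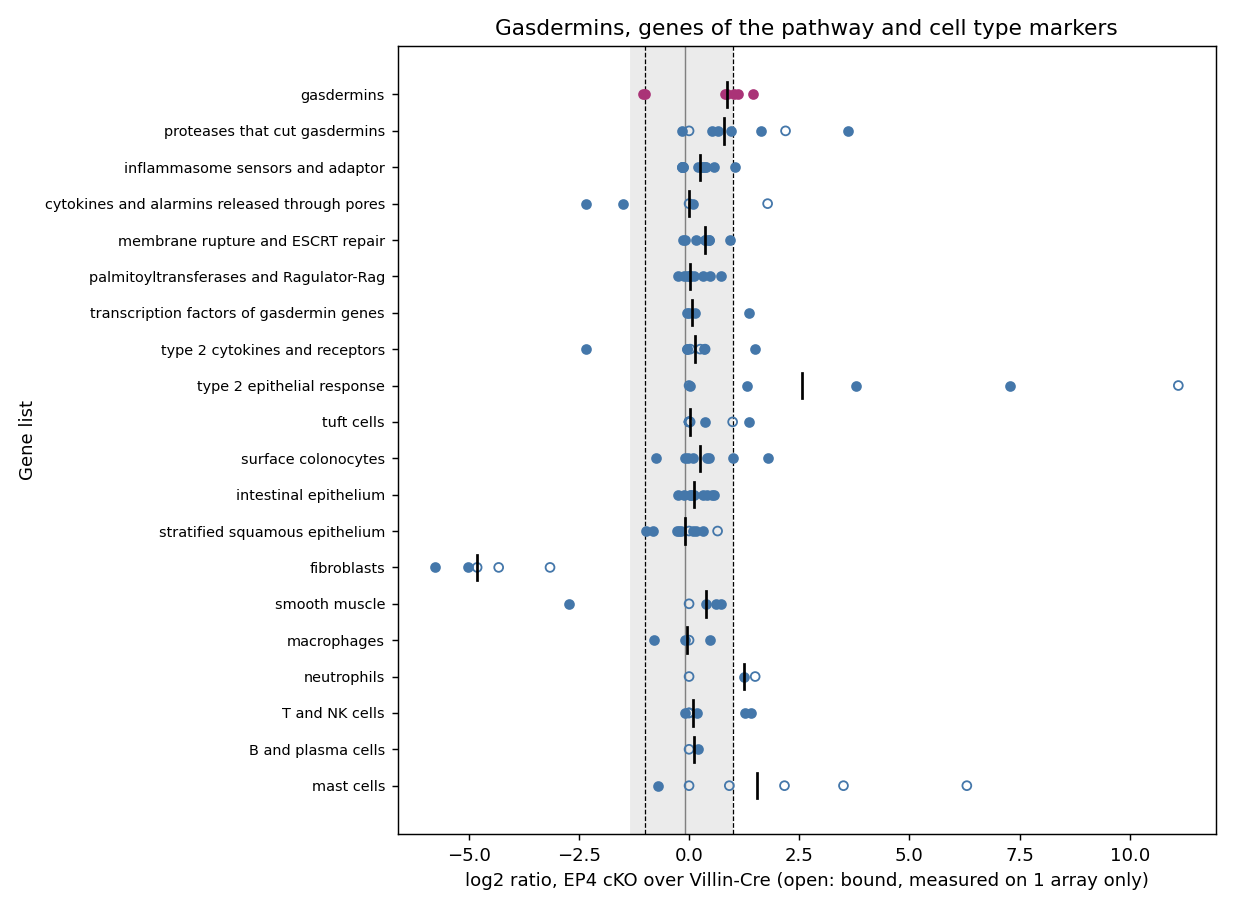
Log2 ratio of EP4 cKO over Villin-Cre for the gasdermins (purple) and for each gene of the pathway and marker lists (blue), with open points for bounds of genes measured on 1 array only, a short black line at each list's median, dashed lines at 2-fold, and a grey band from the 5th to the 95th percentile of all genes with a value. The gasdermins form a group of 5 near 1 and a pair near -1, and the fibroblast list stands at the far left.

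Because the Gsdmc genes are known for type 2 responses, the genes of such a response were set beside them. Of 14 cytokines, receptors and transcription factors of type 2 responses (Stat6, already given, and Gata3, with a bound of 0.25) 8 had a value, and the cytokine genes Il4, Il5, Il9, Il13, Il25 and Tslp were measured well above background on neither array. Of the 8, 1 was higher and 1 lower, with a median of 0.14. Il4ra, the receptor chain shared by interleukin-4 and interleukin-13, had 571 in Villin-Cre colon against 1615 in EP4 cKO colon (2.83-fold), and Il33 was the lower one. Il13ra1, the other chain of the epithelial receptor, had -0.05.

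The epithelial products of type 2 responses were higher where they were changed at all. Past 2-fold, 4 of 6 measured genes were higher and 0 lower, with a median of 2.55. Retnlb, a resistin-like protein of goblet cells, had 95.9 on the Villin-Cre array, which was not well above background, and 275441 on the EP4 cKO array, at least 2197-fold higher. Ang4, an antimicrobial ribonuclease, had 1266 and 197441 (log2 ratio 7.28), and Itln1, an intelectin, 1238 and 17181 (3.79). Clca1, a goblet cell protease, had 295526 and 733436 (1.31), a ratio between those of Gsdmc and Gsdmc2. Sprr2a2, a small proline-rich protein, had 0.02, and Muc5ac a bound of 0.

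Marker lists of the epithelium and of cells tied to type 2 responses gave a divided picture. The tuft cell list had 1 of 8 genes higher, Avil (1.36). Of the 8 values 6 were bounds and 4 of these were set to 0, so its median depends on the floor: it was 0.01 with the bounds, 0.86 over the 2 genes with a ratio, and 1.03 when dim probes were kept, where 5 were higher and 1 lower. Most defining markers of tuft cells were at or near the floor: Pou2f3 and Gfi1b had bounds of 0, Dclk1 a bound of 0.02, Alox5 one of 0.99, and Trpm5 was measured well above background on neither array. Of 6 mast cell markers 3 were higher and 0 lower, and the summed signal was 2948 in Villin-Cre colon against 13836 in EP4 cKO colon. The mast cell proteases Mcpt1, Mcpt2 and Cpa3 were at least 79.0-fold, 11.3-fold and 4.49-fold higher, whereas Kit, the receptor of mast cells that interstitial cells of Cajal share, had a log2 ratio of -0.71 and Tpsb2 a bound of 0.

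The colon epithelium of the label was present on both arrays, whereas the fibroblast markers that whole colon should hold were nearly absent from the EP4 cKO array, as given above. All 9 intestinal epithelium markers were well above background on both arrays and within 2-fold, with a median of 0.10, below the 0.82 to 1.46 of the Gsdmc genes. Surface colonocyte markers, the genes of the cells at the mouth of the crypt, had 2 of 8 higher and 0 lower, with a median of 0.25 and a summed signal of 827660 and 1340510. Krt20, a keratin of these cells, had 146575 and 510711 (log2 ratio 1.80), and Aqp8, a water channel, had 236302 and 473610 (2.004-fold), while Guca2a, the gene of guanylin, had -0.75 and Cdhr2 and Cdhr5, the brush border protocadherins, -0.08 and -0.03. The part of surface colonocytes in the ratios of the Gsdmc genes was not tested.

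Other immune lists were read in the same way. Of the neutrophil markers 2 of 3 with a value were higher, S100a9 with 289 and 689 (1.25) and S100a8 by at least 2.83-fold, while Mpo and Cxcr2 were not well above background. None of 4 macrophage markers and none of 2 B and plasma cell markers was past 2-fold, with medians of -0.05 and 0.11. Their part in the Gsdmd ratio was not tested.

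Gsdmc2 had the largest ratio of the members that were higher and, among genes whose probes were all well above background on both arrays (10512), the genes nearest to it in log2 ratio were Trim6, a ubiquitin ligase (1.46), Nmi, an interferon-inducible partner of STAT proteins (1.45), LOC547349 (1.45), Eps8, an actin regulator of microvilli (1.45), and Pxdc1 (1.45). The likeness is that of 1 ratio between 2 arrays, with distances of up to 0.008 on the log2 scale, well within the scanner error of 0.20.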

How the data were processed

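RNA of whole colon was hybridized to 2 Agilent SurePrint G3 Mouse GE arrays (1 per genotype), and each array was assigned to its genotype by its labels. The methods of the study give 3 samples per genotype, and the labels give 3 pools of colon combined on each array. Whether the samples of the methods are these pools is not stated in the sources used here. The authors deposited the scanner output with intensities per spot that Agilent Feature Extraction (12.0.3.1 per the file headers, 11.5.1.1 per the labels) had corrected for background and not normalized between arrays.

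Outlier spots (195) and control spots were left out, the spots of a probe were averaged, and the processed signal was scaled to a trimmed mean of 2500 without 2% of the probes at each end, as in the methods. Probes were named through the RefSeq accession on the array with a gene table of GRCm38.p6, and 58.3% of the probes matched. The array design refers to an older build, so the reference was used for the order of genes and for the promoter windows, whose coordinates are those of GRCm38.p6, and no position of a probe is given. Of several probes the one with the highest mean signal stands for the gene. A probe well above background on 1 array only was compared with a floor on the other, the higher of its own signal and 125 (Villin-Cre) or 57.8 (EP4 cKO), giving a bound written as "at least". Where the measured signal lay below that floor, the log2 ratio was set to 0. No spot was saturated. The scanner error of a ratio covers 1 spot on each array and not the mice. Over 278 probes with 8 or more spots the median SD of the log2 ratio between spots was 0.035. The number of arrays limits the precision.

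Genes were counted as changed past 2-fold, without a test. The members and the gene lists were chosen with earlier results of these data known. Named are all members and related gasdermins with every probe, most of the flanking genes that had a value, the proteases (one counted in its list is not reported here) and transcription factors, in other pathway lists genes past 2-fold (at most 5 per direction), in marker lists the 3 largest per direction, and the 5 genes nearest to the member with the largest ratio on its brightest probe. Genes named within 2-fold or as dim in other lists were chosen after their values were seen. Alternatives were scaling to the 75th percentile, normexp (offset 50) on the median spot signal with quantile normalization, loess (span 0.3), a trimmed mean over all spots, the median of 350 E1A control spots, 2 other filters on dim probes, 3-fold and 1.5-fold thresholds, and the mean of all probes. The steps were tested on simulated data. Normexp was run with limma 3.58.1 in R 4.3.3, loess with statsmodels 0.14.6, and all else with pandas 2.3.3, numpy 2.4.6 and, for plots, matplotlib 3.10.9 in Python 3.11.15.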

Additional observations from a re-analysis of the deposited data

How the results depend on the processing

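The rise of Gsdmc, Gsdmc2 and the brighter Gsdmd probe stayed past 2-fold in the 5 other scalings, with log2 ratios of 1.02 to 2.20, 1.46 to 2.63 and 1.06 to 2.29. The number of gasdermin genes more than 2-fold higher, 3 in the main setting, was 4 with the 75th percentile, 5 with normexp and quantile normalization, 5 with the E1A control spots, and 3 with loess, with a trimmed mean over all spots and with both other filters on dim probes. The number more than 2-fold lower, 1 in the main setting, was 0 with the 75th percentile, normexp, loess, the trimmed mean over all spots and the E1A spots. Thresholds of 3-fold gave 0 higher and 0 lower, thresholds of 1.5-fold 5 and 2, and the mean ratio over every probe of a gene 2 and 1, Gsdmd being the gene lost. The shares of all genes at these thresholds and with the mean ratio are not given here. Whether these member counts exceed those shares was thus not tested. The 2 filters on dim probes could not change any member probe. With the E1A spots, which shifted the median of all probes by 1.18, the Gsdma probe A_51_P314107 turned from -1.04 to 0.14 and Gsdme from -0.997 to 0.18. The distance of the C and D gasdermins from Gsdme and Gsdma, which only normexp and loess could change, was at least 1.69. The median of the mast cell list turned from 1.54 to -0.71 when only probes well above background on both arrays were used, which leaves Kit alone. The fibroblast median was -2.96 after normexp. The tuft cell list had 2 genes higher with the 75th percentile, loess and the trimmed mean over all spots. With dim probes kept it had 5 higher and 1 lower (median 1.03). The type 2 cytokine and receptor list had 3 higher with loess. With dim probes kept, 2 of its 14 genes were higher and 5 lower (median -0.04). The T and NK cell list had 1 higher after normexp. With the E1A spots, 50.7% of all genes and most genes of most lists were past 2-fold higher. Of 216 alternative values (probe ratios, counts and list medians), 97 stayed past 2-fold, moved within the spread between spots or, for counts, changed by at most 1.5 times. Another 90 stayed within 2-fold but moved by more than that spread or, for counts, changed by over 1.5 times. Of the others, 23 newly passed 2-fold, 4 dropped below it and 2 that were past it changed sign. Values nearer 0, such as Gsdme and the medians of the squamous, macrophage and type 2 cytokine lists, also changed sign in some settings. No paired analysis was possible because there was 1 array per genotype, and no array could be left out. Signal over background limits what Gsdma2, Gsdma3, Pjvk and the cytokine genes can show.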
